A study of Mus musculus with 5 samples.

Results

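The genes described here are 36 interferon-stimulated genes, listed by name, with no threshold on a measured value. They are 36 of the 18132 genes that the count tables of the 4 days name between them, and all 36 were named at every day. Their UMIs (unique molecular identifiers, which count captured RNA molecules) were summed over the cells of each cell type label and divided by all UMIs of that label, so that a level is in counts per 1000000 UMIs (cpm). The cells came from the tibialis anterior (the muscle at the front of the shin) of C57Bl/6 mice and were measured by droplet sequencing after sorting for live cells. Day 0 was uninjured muscle of 4-month-old female mice, sequenced in 2 runs that share 1 matrix. Days 2, 5 and 7 followed injury with notexin, a phospholipase from snake venom that kills muscle fibres and spares their stem cells. Day 5 came from 4-month-old female mice, day 2 from 7-month-old female mice and day 7 from 4-month-old male mice, so day cannot be told apart from age at day 2 or from sex at day 7. No gene was deleted or added in any group, and the number of mice behind each library is not given in the sources used here.

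Interferons are secreted proteins by which cells report viral RNA, foreign DNA and damage to their neighbours. Type I interferons act through a receptor that sends Stat2 and Irf9 to interferon-stimulated response elements, while interferon gamma, made by NK and T cells, acts on gamma-activated sites and through Irf1. The 2 programs overlap, so the lists used here name the genes by the interferon they are mainly known for: a type I core of 8 genes (Ifit1, Ifit2, Ifit3, Isg15, Rsad2, Irf7, Usp18 and Oasl2), an interferon gamma core of 8 genes (Gbp2, Gbp3, Gbp7, Iigp1, Igtp, Irgm1, Ifi47 and Irf1), 3 genes of antigen processing (Psmb8, Psmb9 and Tap1), 5 sensors and signal carriers (Stat2, Irf9, Ifih1, Ddx58 and Zbp1) and 12 others.

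The 4 matrices held 5176, 4903, 2164 and 5680 labelled cells at days 0, 2, 5 and 7, with medians of 3832.5, 9683, 2018 and 5991 UMIs per cell and totals from 5986701 to 57723171 UMIs. Between 9 and 40 barcodes were shared between any pair of days. With 1 matrix per day there was no replicate and no test between days: every interval below is a 95% interval of counting error only (exact Poisson for levels, exact binomial by Clopper-Pearson for ratios and shares), and the spread between mice is unknown. Most labels carried the markers of their name. The label B cells at day 2 did not: its B cell markers summed to 1.83 cpm, with 2 of 4 at 0, against 2584 cpm for macrophage, 688 cpm for monocyte and 228 cpm for dendritic markers. Nor did the label Platelets at day 0, whose endothelial markers summed to 31008 cpm against 33.0 cpm for platelet markers, or the label Neural/Glial/Schwann cells, with 31890 cpm of mature muscle, 20108 cpm of FAP and 3497 cpm of glial markers. These labels are kept below as names only.

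The regulatory DNA before a few of these genes shows what the lists share. Promoters were taken from RefSeq (GRCm38.p6), which held 29 of the 36 genes, and the 250 bases before the start of the transcript were searched on both strands for the response element as GAAA, any 2 bases and GAAA again, and for the gamma-activated site as TTCNNNGAA, where N is any base. The stretches below run 5′ to 3′ on the gene's strand, with matches in capitals. Ifit1, Isg15, Rsad2, Gbp2 and Irf1 stand for the lists that the results compare, and Igtp was added after its sequence was seen because it holds both motifs side by side.
Ifit1: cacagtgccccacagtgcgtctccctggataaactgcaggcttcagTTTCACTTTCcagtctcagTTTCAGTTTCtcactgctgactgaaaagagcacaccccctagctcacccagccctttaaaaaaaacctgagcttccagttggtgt
Isg15: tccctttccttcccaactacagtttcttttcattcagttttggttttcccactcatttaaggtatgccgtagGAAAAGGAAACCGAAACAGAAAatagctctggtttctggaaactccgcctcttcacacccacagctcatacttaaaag
Rsad2: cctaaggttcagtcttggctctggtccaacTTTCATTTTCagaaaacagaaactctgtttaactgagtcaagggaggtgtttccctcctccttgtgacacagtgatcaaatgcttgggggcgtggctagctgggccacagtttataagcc
Gbp2: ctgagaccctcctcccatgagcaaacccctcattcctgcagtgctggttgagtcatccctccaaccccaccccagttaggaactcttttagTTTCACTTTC
Igtp: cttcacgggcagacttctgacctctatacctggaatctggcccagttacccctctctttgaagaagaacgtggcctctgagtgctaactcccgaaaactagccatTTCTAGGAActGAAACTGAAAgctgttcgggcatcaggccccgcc
Irf1: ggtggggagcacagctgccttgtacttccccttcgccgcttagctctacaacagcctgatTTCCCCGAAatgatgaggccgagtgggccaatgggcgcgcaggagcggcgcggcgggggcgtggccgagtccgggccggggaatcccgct
They lie at chr19:34640739-34640888 (plus strand), chr4:156200819-156200968 (minus), chr12:26456453-26456602 (minus), chr3:142620513-142620613 (plus), chr11:58199406-58199555 (plus) and chr11:53769864-53770013 (plus), in the order printed. Ifit1 held 2 response elements, Isg15 held 3 that overlap in 1 run of letters, and Rsad2 and Gbp2 held 1 each. Igtp held 1 response element beside 1 gamma-activated site, and the first of the 2 windows of Irf1 held a gamma-activated site alone. The response element stood in 12 of the 29 genes (41.4%) against 3.46% of all 27025 genes in the table, in 4 of the 7 type I core genes and in 5 of the 7 interferon gamma core genes found there. The gamma-activated site stood in 7 of the 29 (24.1%) against 8.13% of all genes, in 1 of 7 and in 3 of 7. The 2 core lists thus did not divide by these letters, and a match is a description of the sequence, not of binding.

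Among the labels of each day, endothelial cells carried the highest type I core level, and over all days muscle stem cells at day 2 carried the lowest. In endothelial cells the 8 type I core genes summed to 1633 cpm at day 7 (95% interval 1587 to 1680), to 1362 cpm at day 5 (1193 to 1547) and to 1345 cpm at day 0 (1305 to 1387). The intervals of days 0 and 5 overlap. At day 2 it was 219 cpm (181 to 263), above the other labels of that day but below most labels of day 7. After the 3 highest endothelial values came the label FAPs at day 7 with 1189 cpm (fibro-adipogenic progenitors, the connective tissue stem cells of muscle), anti-inflammatory macrophages at day 7 with 1069.7 cpm and FAPs (activated) at day 7 with 912 cpm. Platelets at day 0, Macrophages/APCs 2 at day 7 and Macrophages/APCs at day 7 followed with 825, 823 and 799 cpm, and their intervals overlap. At the other end, B cells at day 2 held 80.1 cpm, Tenocytes at day 0 held 39.1 cpm (22.3 to 63.5) and MuSCs and progenitors at day 2 held 13.2 cpm (8.37 to 19.8), although the last of these were the deepest cells of the series with a median of 34387 UMIs.

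**Figure D1:**
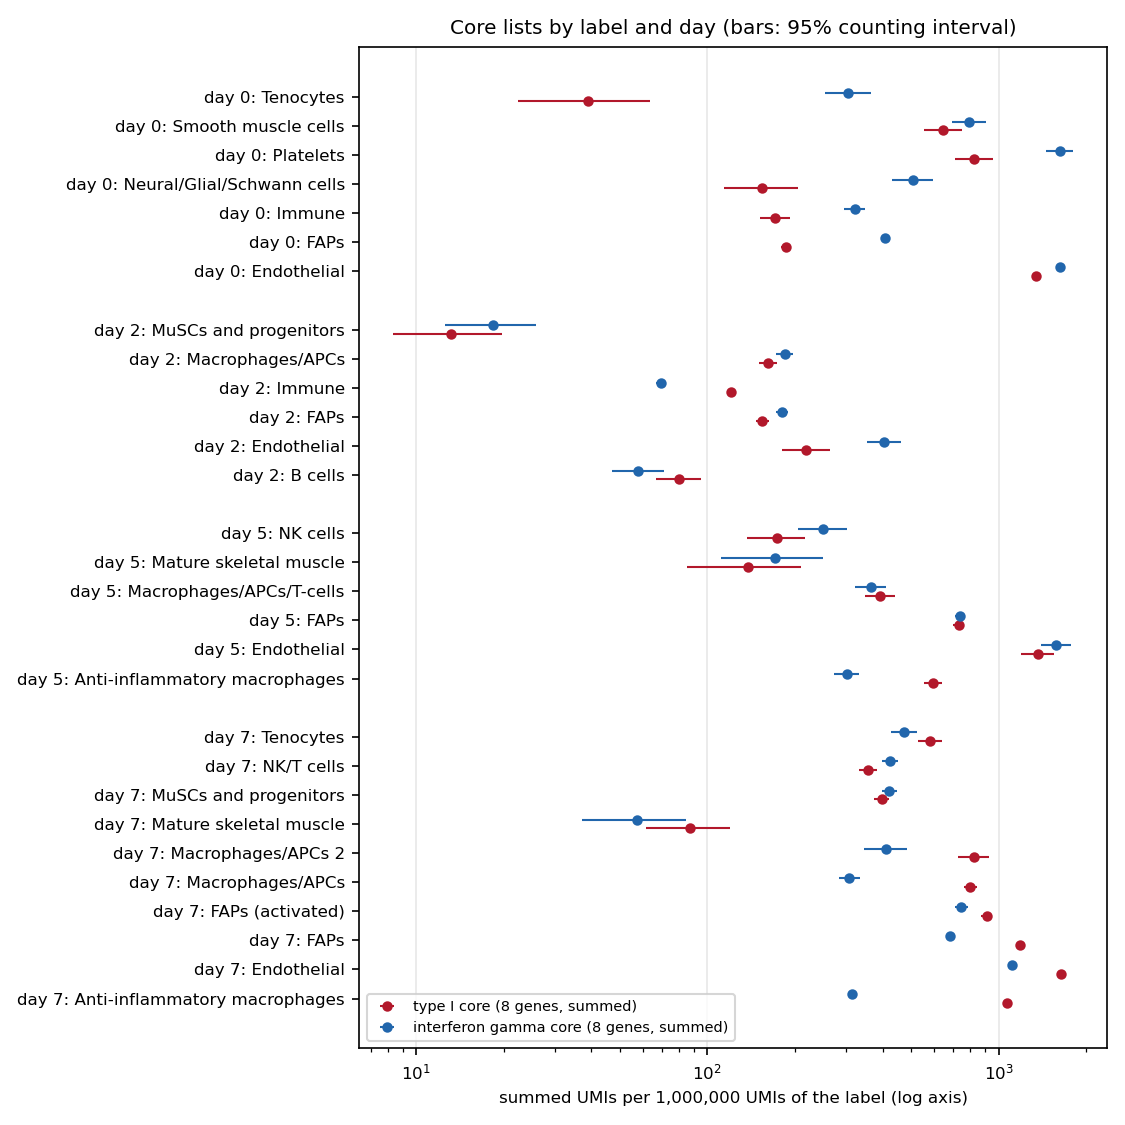
Summed level of the 8 type I core genes (red) and of the 8 interferon gamma core genes (blue) in every label with at least 50 cells, by day, in UMIs per 1000000 UMIs of the label on a log axis, with bars for the 95% counting interval. Endothelial cells hold the highest type I level of each day, and red lies to the right of blue in the anti-inflammatory macrophages of days 5 and 7 (596 against 301 cpm and 1069.7 against 314 cpm).

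The interferon gamma core had another order. Endothelial cells at day 0 held 1629 cpm (1585 to 1675), Platelets at day 0, which carry endothelial markers, 1621 (1454 to 1802), and endothelial cells at day 5 held 1576 (1394 to 1775). These 3 overlap in their intervals. Endothelial cells at day 7 stood below them with 1116 cpm, followed by smooth muscle cells at day 0 with 794 cpm and FAPs at days 5 and 7 with between 681 and 745 cpm over their labels. Several macrophage labels lay lower: 301 and 314 cpm in anti-inflammatory macrophages at days 5 and 7, 308 cpm in Macrophages/APCs at day 7 and 69.4 cpm in the Immune cells of day 2. NK/T cells at day 7 held 425 cpm and MuSCs and progenitors 422 cpm.

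Set side by side, the lists stood furthest toward type I in macrophages of day 7, but not in every macrophage label. Anti-inflammatory macrophages held 1.98 type I core UMIs for each interferon gamma core UMI at day 5 (1.75 to 2.23) and 3.41 at day 7 (3.30 to 3.52), and Macrophages/APCs held 2.6 at day 7. At day 2 Macrophages/APCs held 0.87 and Immune cells 1.74, and Macrophages/APCs/T-cells at day 5 held 1.08 (0.91 to 1.28). In FAPs the ratio was 0.46 at day 0, 0.86 at day 2, 0.99 at day 5 and 1.66 at day 7, higher at each later day. Both FAP core sums were lower at day 2 than at day 0. Irf1 alone made up 205 of the 408 cpm of the interferon gamma core at day 0 and 43.1 of 180.4 cpm at day 2. In endothelial cells the ratio was 0.83 (0.79 to 0.86), 0.54 (0.43 to 0.68), 0.86 (0.72 to 1.03) and 1.46 (1.40 to 1.53). Tenocytes had the lowest ratio at day 0, 0.13 (0.07 to 0.22), and 1.23 at day 7. NK/T cells at day 7 stayed on the gamma side with 0.84.

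Single genes show which members set these totals. Iigp1, a GTPase that attacks the vacuoles of intracellular parasites, was at 556, 87.6, 655 and 351 cpm in endothelial cells at days 0, 2, 5 and 7 and at 38.0, 37.2, 247 and 229.5 cpm in FAPs, but at only 18.5 and 15.0 cpm in the anti-inflammatory macrophages of days 5 and 7. Ifit1, which binds viral RNA and blocks its translation, was highest in FAPs at day 7 (238 cpm in the label FAPs) and lower in anti-inflammatory macrophages, at 19.9 and 38.8 cpm. Irf7, the transcription factor that drives type I interferon genes, had the reverse pattern, with 139 and 395 cpm in anti-inflammatory macrophages, 42.9 and 164 cpm in FAPs and 86.9 and 238 cpm in endothelial cells at days 5 and 7. Type I core genes were therefore not carried in one fixed proportion by the cell types. Ifit3 and its near-identical copy Ifit3b, the Gbp genes and Ifi204 among its neighbours can share reads, so their single values are uncertain.

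**Figure D2:**
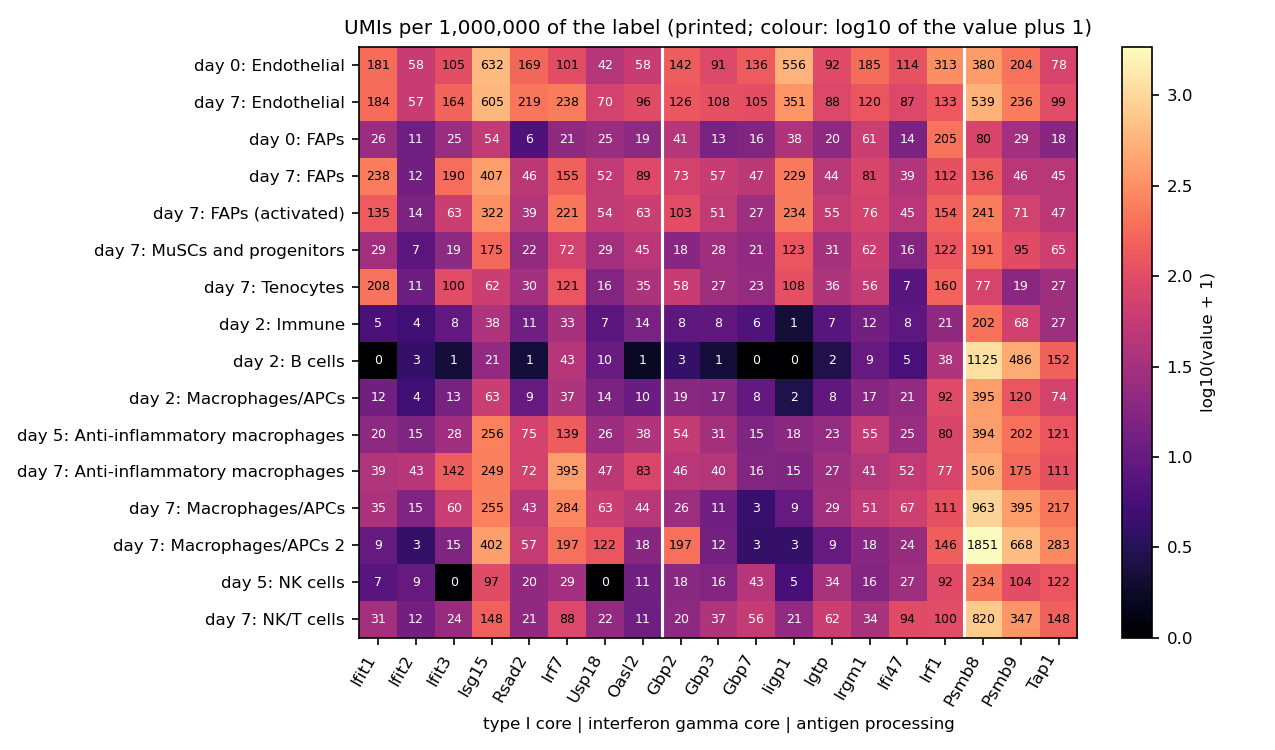
Level of the 8 type I core, 8 interferon gamma core and 3 antigen processing genes (columns) in 16 label and day pairs (rows), printed in UMIs per 1000000 UMIs and coloured by the log10 of the value plus 1. Iigp1 is bright in endothelial cells and in FAPs at day 7 and dark in macrophages, while Psmb8 reaches 1851 cpm in Macrophages/APCs 2.

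Endothelial cells were the label with the highest level for 24 of the 36 genes at day 0, 16 at day 2, 22 at day 5 and 19 at day 7. No share of all genes stands beside these counts, so they do not set the 36 genes apart from other genes. Antigen processing followed them at day 0, when all 3 of its genes were highest in endothelial cells, and other labels led at days 2 and 7. Psmb8 and Psmb9, catalytic subunits that help turn the proteasome into the immunoproteasome, and Tap1, a part of the pump that loads peptides for MHC class I, summed to 2803 cpm (2626 to 2988) in Macrophages/APCs 2 at day 7, a label with 3292 cpm of dendritic markers. The label B cells at day 2 followed with 1763 cpm, then Macrophages/APCs at day 7 with 1574 cpm and NK/T cells at day 7 with 1314 cpm. These intervals do not overlap. Endothelial cells held 662, 328, 562 and 874 cpm over the 4 days and FAPs 127, 162, 147 and 246 cpm. The label B cells at day 2 combined 1763 cpm of antigen processing genes with 80.1 cpm of the type I core and 58.1 cpm of the interferon gamma core.

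Members of the other groups had their own leading labels. Ifi204, a DNA sensor of the PYHIN family, was highest in a FAP label at every day, with 154, 114, 219 and 274 cpm. Ifi27l2a was highest in Immune cells at day 0 (670 cpm), Macrophages/APCs at day 2 (630.2 cpm), Macrophages/APCs/T-cells at day 5 (1255 cpm) and FAPs (activated) at day 7 (2269 cpm). Zbp1, a sensor of Z-form nucleic acids that can start cell death, was highest in FAPs (activated) at day 7 with 180.3 cpm and stood at 112 cpm in NK/T cells. Bst2, the tether that holds budding viruses at the cell surface, was highest in endothelial cells at days 0, 5 and 7 (848, 875 and 1447 cpm). Ifitm3, which blocks viral fusion, stood at 2486, 2546, 1776 and 3108 cpm in FAPs over the 4 days, against 106 cpm in NK cells at day 5 and 181 cpm in NK/T cells at day 7. Isg20, an RNA exonuclease, was highest in NK/T cells at day 7 with 42.0 cpm.

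In FAPs most of the interferon genes had their lowest level at day 2 and their highest at day 7. Of the 36 genes, 24 were lowest at day 2, 8 at day 0 and 4 at day 5, where 32.1% of all 13830 genes with at least 20 UMIs over the 4 days were lowest at day 2. Then 27 were highest at day 7 and 8 at day 5, against 18.5% and 33.0% of all genes, while Irf1 alone was highest at day 0. The 3 comparisons that follow share the day 0 cells.

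At day 2 the type I core summed to 155 cpm in FAPs against 186 cpm at day 0, a log2 ratio of -0.26 (-0.36 to -0.17). Here 1 of the 36 genes was at least 2-fold higher and 7 were at least 2-fold lower. Among all 12995 genes with at least 20 UMIs over both days, 10.9% were that much higher and 14.1% that much lower, so the 7 lower genes are a share near this background. The median log2 ratio of the 36 was -0.40 and that of all genes -0.17. Lgals3bp, a secreted binder of galectins, was the 1 higher gene, from 48.7 to 128 cpm (log2 ratio 1.39, 1.26 to 1.52). Ifi44, Isg20 and Tap1 had the next largest ratios (0.73, 0.73 and 0.63). The lower genes were Irf1 (205 to 43.1 cpm), Usp18, which strips Isg15 from proteins and damps receptor signalling (25.1 to 7.93 cpm), Irgm1 (60.6 to 21.5 cpm), Ifit2 (11.1 to 4.34 cpm), Ifit3 (24.7 to 9.77 cpm), Ifih1, a sensor of long viral RNA (18.8 to 8.69 cpm), and Rsad2, an antiviral enzyme also called viperin (5.51 to 2.71 cpm). The 3 antigen processing genes together were higher, at 162 against 127 cpm (log2 ratio 0.35, 0.26 to 0.45). The type I ratio is small: it stood at -0.48 without the deepest 5% of cells and at -0.43 with cells thinned to 1000 UMIs, and the direction was lost in the authors' log-normalized values, where the difference was 0.00298.

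At day 5 the type I core summed to 729.6 cpm in FAPs, 3.92-fold above day 0 (log2 ratio 1.97, 1.89 to 2.05). In all, 19 of the 36 genes were at least 2-fold higher and 0 were lower, against 10.2% and 10.3% of all 12386 genes tested. The median of the 36 was 1.02 and that of all genes -0.01. Rsad2 stood at 59.7 cpm against 5.51 at day 0 (log2 ratio 3.44, 3.06 to 3.82) and Ifi44, a gene of small counts, at 12.3 against 0.918 cpm (3.75, 2.84 to 4.72). Iigp1 stood at 247 against 38.0 cpm (2.70, 2.54 to 2.86), Ifit1 at 158 against 25.8 cpm (2.62, 2.43 to 2.81) and Isg15, a ubiquitin-like tag, at 307 against 53.8 cpm (2.51, 2.38 to 2.65). All 5 intervals lay above a 4-fold difference. The smallest ratios were those of Ifi35 (54.2 to 31.2 cpm, -0.80), Isg20 (11.8 to 7.89 cpm, -0.58) and Ifitm3 (2486 to 1776 cpm, -0.49). In the type I core 6 of 8 genes were at least 2-fold higher, all but Ifit2 (11.1 to 10.3 cpm) and Usp18 (25.1 to 33.3 cpm).

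At day 7 the type I core was higher again, at 1148 cpm over both FAP labels, 6.18-fold above day 0 (log2 ratio 2.63, 2.57 to 2.68). At this day 22 of the 36 genes were at least 2-fold higher and 0 were lower, against 9.99% and 10.6% of all 13214 genes tested. The median of the 36 was 1.27 and that of all genes -0.08. Ifi44 had the largest ratio (13.6 cpm, log2 ratio 3.89, 3.13 to 4.75), followed by Ifit1 (223 cpm, 3.12, 2.97 to 3.26), Rsad2 (45.3 cpm, 3.04, 2.72 to 3.38) and Irf7 (164 cpm, 3.0, 2.83 to 3.16). Of the type I core, 7 of 8 genes were at least 2-fold higher, and Ifit2 alone stayed at 11.9 cpm beside 11.1 at day 0. The smallest ratios of the 36 were those of Irf1 (-0.79), Ifit2 (0.11) and Ifi204 (0.14). At least 2-fold higher from day 5 to day 7 were 7 of 36 genes and 0 were lower, against 9.69% and 11.9% of all genes. Irf7 led them with 42.9 to 164 cpm (log2 ratio 1.94, 1.68 to 2.21), beside Isg20, Ifit3, Lgals3bp, Rtp4, Gbp3 and Psmb8.

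**Figure D3:**
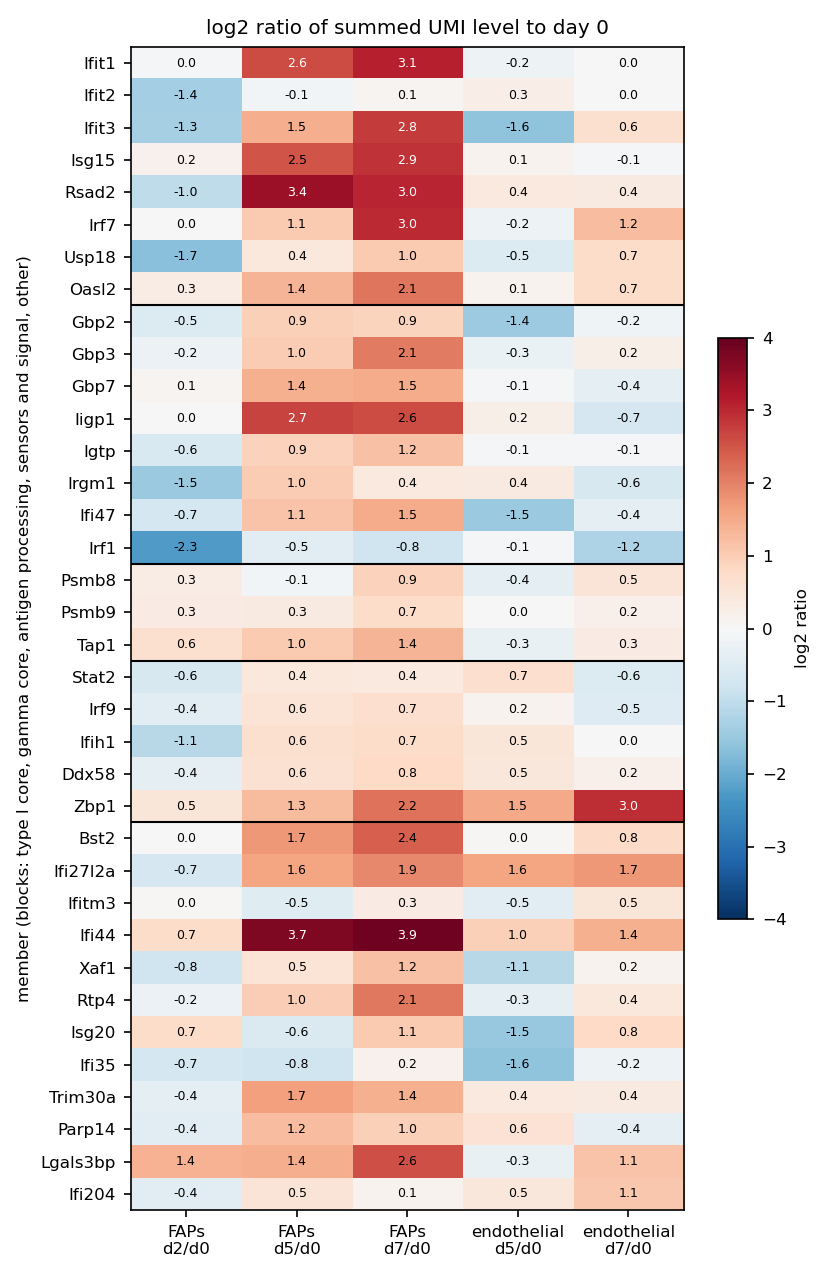
Log2 ratio of each of the 36 genes (rows, grouped by role) to day 0 in FAPs at days 2, 5 and 7 and in endothelial cells at days 5 and 7, with the value printed in each cell and red for higher. The FAP columns of days 5 and 7 are mostly red in the type I block, where Ifit2 is close to 0, while the endothelial columns are pale.

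The interferon gamma core of FAPs took another course. It summed to 408 cpm at day 0, 180.4 at day 2, 738 at day 5 and 690.0 at day 7, which are log2 ratios to day 0 of -1.18 (-1.26 to -1.10), 0.85 (0.78 to 0.92) and 0.76 (0.71 to 0.80). The level of day 7 was thus slightly below that of day 5, at a log2 ratio of -0.10 (-0.16 to -0.03), while the type I core was 0.65 higher (0.59 to 0.72). Of the 8 genes, 5 were at least 2-fold higher at day 5 (Gbp3, Gbp7, Iigp1, Irgm1 and Ifi47) and 5 at day 7 (Gbp3, Gbp7, Iigp1, Igtp and Ifi47), and none was lower at either day. Gbp3 and Gbp7, large GTPases that coat pathogen vacuoles, went from 13.3 to 26.7 and 56.2 cpm and from 15.7 to 41.8 and 43.7 cpm at days 0, 5 and 7. Gbp2 went from 41.2 to 79.2 and 77.0 cpm and stayed just under 2-fold (log2 ratios 0.94 and 0.90). All 8 were at least 2-fold higher at day 5 than at day 2, as were all 8 genes of the type I core. In that comparison 26 of the 36 genes were higher and 1, Isg20, was lower, against 15.9% and 11.6% of all genes.

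Irf1, a transcription factor of the interferon gamma response, was the exception and carried much of the total. It stood at 205, 43.1, 149 and 118 cpm in FAPs and at 313, 93.3, 301 and 133 cpm in endothelial cells at days 0, 2, 5 and 7, highest at day 0 in both. Without Irf1 the interferon gamma core of FAPs had log2 ratios to day 0 of -0.57, 1.53 and 1.49 at days 2, 5 and 7. Irf1 can also respond quickly to stress, as immediate-early genes do. Junb, an immediate-early gene that tissue dissociation is known to induce, stood at 3319, 960, 1881 and 1748 cpm in FAPs and at 2776, 1147, 1257 and 912 cpm in endothelial cells. Fos stood at 2785, 1173, 2727 and 2798 cpm in FAPs and at 1787, 690, 1275 and 976 cpm in endothelial cells. Jun stood at 1374, 645, 1166 and 1395 cpm in FAPs and at 1910, 604, 1136 and 778 cpm in endothelial cells. For Egr1 the values were 1369, 855, 2510 and 1103 cpm in FAPs and 1230, 288, 1489 and 417 cpm in endothelial cells. Fos, Jun and Egr1 were thus not highest at day 0 in FAPs, unlike Irf1 and Junb. Their part in the Irf1 values was not tested.

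The remaining members of FAPs divided by role. Of the antigen processing genes, Tap1 alone was at least 2-fold higher, with 17.6, 36 and 45.5 cpm at days 0, 5 and 7. Psmb8 stood at 79.6, 74.1 and 151 cpm, so it was level at day 5 and almost 2-fold higher at day 7 (log2 ratio 0.93, 0.83 to 1.03). Of the 5 sensors and signal carriers only Zbp1 passed 2-fold at days 5 and 7, with 14.8, 35.7 and 67.1 cpm. The others stood closer to day 0 at day 7: Stat2 with 37.9 against 28.7 cpm, Irf9 with 45.1 against 28.5, Ifih1 with 31.3 against 18.8 and Ddx58, the sensor of short viral RNA ends also called RIG-I, with 28.1 against 16.1. Among the 12 others, 6 were at least 2-fold higher at day 5 (Bst2, Ifi27l2a, Ifi44, Trim30a, Parp14 and Lgals3bp) and 8 at day 7 (Bst2, Ifi27l2a, Ifi44, Xaf1, Rtp4, Isg20, Trim30a and Lgals3bp). Bst2 stood at 146, 143, 488 and 764 cpm over the 4 days, Ifi27l2a at 297, 185, 889 and 1125 cpm and Rtp4 at 32.3, 27.3, 63.4 and 139 cpm. Ifitm3, Ifi35 and Ifi204 stayed within 2-fold of day 0 at days 2, 5 and 7.

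RNA of macrophages lay in the FAP libraries to a varying degree. Taken as a median over 6 macrophage markers, FAPs held 0.308%, 6.18%, 1.12% and 2.71% of the level seen in the largest macrophage or immune label of days 0, 2, 5 and 7, and 2881 of 3516, 0 of 667, 429 of 828 and 170 of 1889 FAPs had no UMI of C1qa, C1qb, C1qc or Lyz2. In these FAPs the type I core log2 ratio to day 0 was 1.73 at day 5 and 2.78 at day 7, and the interferon gamma core ratio 0.75 and 1.02. The type I level of FAPs at day 7 (1148 cpm) was above that of the anti-inflammatory macrophages (1069.7 cpm). What part macrophage RNA had in the FAP levels was not tested.

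Beside the 36 genes, 41 other genes of the interferon pathways were set, of which 37 were found in the tables. In FAPs 3 of 32 tested were at least 2-fold higher and 8 lower at day 2, 14 of 33 higher and 0 lower at day 5, and 15 of 35 higher and 0 lower at day 7. The shares of all genes were 10.9%, 10.2% and 9.99% higher and 14.1%, 10.3% and 10.6% lower, so the higher count of day 2 is at the background. Cxcl9, a chemokine that interferon gamma induces and that draws T cells, stood at 8.20, 23.1, 115 and 148 cpm at days 0, 2, 5 and 7 and had the largest ratio at days 2 and 5 (log2 1.5 and 3.81). Oas3, which makes the second messenger that switches on RNase L, went from 1 UMI at day 0 to 37 at day 7, so its ratio of 5.39 has the wide interval of 2.82 to 10.73. Oas2 and Mx1, both antiviral effectors, had log2 ratios of 3.31 (2.27 to 4.41) and 3.16 (1.94 to 4.47) at day 5 from 13 and 10 UMIs at day 0. The receptor chain Ifngr1 had the smallest ratio at day 5 (243 to 143 cpm, -0.77) and Ifnar2 at day 7 (80.5 to 51.0 cpm, -0.66). Cmpk2, a mitochondrial nucleotide kinase, had the smallest at day 2 (9.42 to 3.26 cpm, -1.53).

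Of the ligands, Ifng, the gene of interferon gamma itself, stood at 48.5 cpm in the Immune cells of day 0, 146 cpm in the NK cells and 137 cpm in the Macrophages/APCs/T-cells of day 5, and 268 cpm in the NK/T cells of day 7. Ifnb1 was seen at day 7 alone, at 0.0989 cpm over all cells, which rests on very few UMIs. The matrices of days 0 and 5 held 22330278 and 5986701 UMIs against 40427212 at day 7, while that of day 2 was deeper, with 57723171. Finding no Ifnb1 UMI at days 0, 2 and 5 does not show that the gene was absent. Other type I interferon genes were not among the genes listed.

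Endothelial cells held these genes at high levels before injury. Of the 36 genes, 32 had their lowest endothelial level at day 2, when only 58 endothelial cells were captured, against 35.8% of all 10960 genes. Highest at day 7 were 19 genes, at day 5 there were 11 and at day 0 there were 6, against 19.9%, 33.6% and 28.5% of all genes. Isg15 stood at 632, 89.5, 701 and 605 cpm and Rsad2 at 169, 40.0, 220.2 and 219 cpm over the 4 days. The day 2 values rest on few molecules, since Zbp1 with 1 UMI stood at 1.91 cpm there, and macrophage markers stood at 24.8% (median) of their level in Immune cells, against 0.446%, 0.959% and 6.25% at days 0, 5 and 7. What part that had in the low day 2 levels was not tested.

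At day 5 the endothelial type I core was at 1362 cpm against 1345 at day 0 (log2 ratio 0.02, -0.18 to 0.21) and the interferon gamma core at 1576 against 1629 cpm (-0.05, -0.23 to 0.13). Both intervals include 0 in these 100 cells, and without Isg15 the type I ratio was -0.11. Of the 36 genes, 2 were at least 2-fold higher (Ifi27l2a, 137 to 411 cpm, and Zbp1, from 19 UMIs at day 0 and 3 at day 5) and 6 were at least 2-fold lower (Ifit3, Gbp2, Ifi47, Xaf1, Isg20 and Ifi35), against 11.4% and 15.6% of all 9415 genes tested. These shares lie close to the background. The 6 lower genes had between 1 and 13 UMIs at day 5. Against the same background, 8 of 32 other pathway genes were higher and 3 lower, led by Jak2, a kinase of the interferon gamma receptor (22.9 to 110.1 cpm, log2 ratio 2.27, 1.45 to 3.01).

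At day 7 the 2 core lists had ratios of opposite sign in endothelial cells. The type I core was at 1633 against 1345 cpm (log2 ratio 0.28, 0.22 to 0.34) and the interferon gamma core at 1116 against 1629 cpm (-0.55, -0.61 to -0.48). Of the 36 genes, 6 were at least 2-fold higher and 1 was lower, against 7.08% and 10.0% of all 10721 genes tested. The higher genes were Zbp1 (6.12 to 47.4 cpm, log2 ratio 2.95, 2.25 to 3.73), Ifi27l2a (137 to 457 cpm), Ifi44 (26.7 to 71.6 cpm), Irf7 (101 to 238 cpm), Lgals3bp (63.5 to 140.4 cpm) and Ifi204 (29.3 to 61.3 cpm), and the lower gene was Irf1. Ifit1 and Isg15 were level with day 0 (184 against 181 and 605 against 632 cpm). In the interferon gamma core, Iigp1 was at 351 against 556 cpm (-0.67) and Irgm1, which guards host membranes from its relatives, at 120 against 185 cpm (-0.63). In the endothelial cells without a UMI of those 4 macrophage genes the ratios were 0.45 for the type I core and -0.30 for the interferon gamma core, and without Isg15 the type I ratio was 0.53. In the authors' log-normalized values, on a scale of natural logs averaged over cells, the interferon gamma difference was -0.0075 and the type I difference 0.21. Against the same background as above, 2 of 32 other pathway genes were higher and 1 lower, led by Cxcl10, the companion chemokine of Cxcl9 (39.0 to 158 cpm, log2 ratio 2.02, 1.73 to 2.32).

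**Figure D4:**
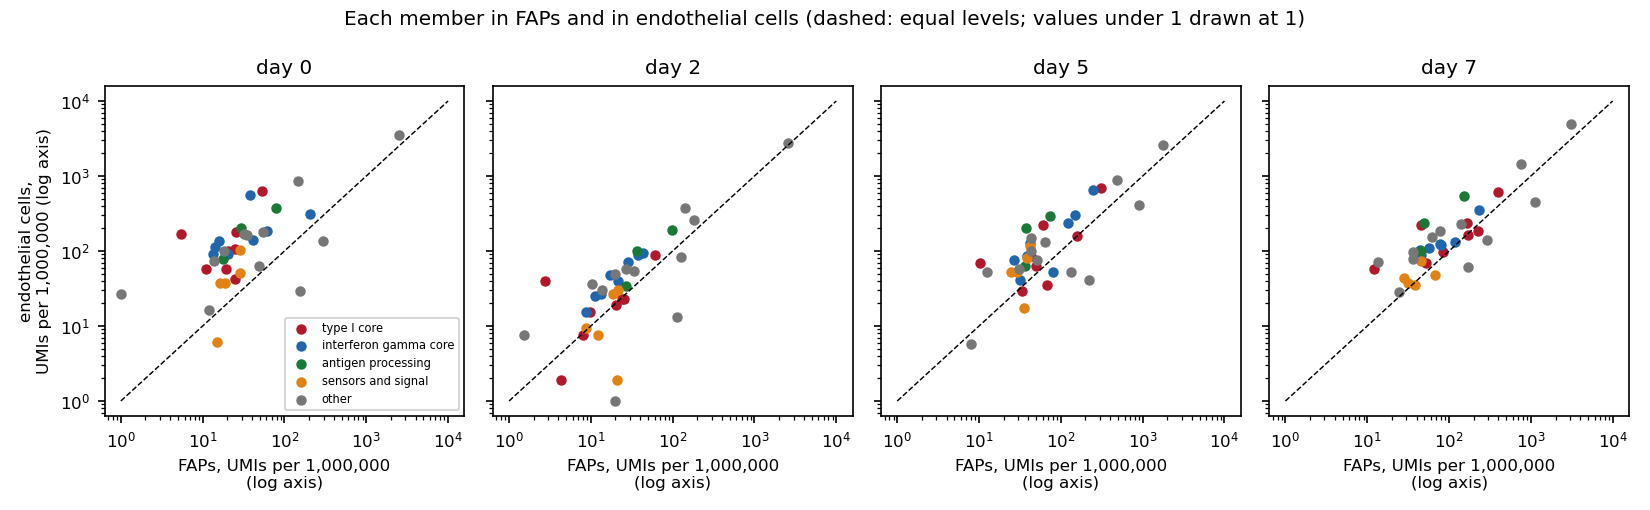
Level of each of the 36 genes in FAPs (horizontal axis) and in endothelial cells (vertical axis) at each day, in UMIs per 1000000 UMIs on log axes, coloured by role, with a dashed line of equal levels. At day 0 most genes lie above the line, with 26 of 36 at least 2-fold higher in endothelial cells, and at day 7 they lie closer to it, with 12 of 36.

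The gap between endothelial cells and FAPs was widest at day 0. There the type I core was 7.24-fold higher in endothelial cells (log2 ratio 2.86, 2.79 to 2.92) and the interferon gamma core 3.99-fold (2.00, 1.94 to 2.05), and 26 of 36 genes were at least 2-fold higher and 3 lower, against 17.9% and 17.4% of all genes. Rsad2 (169 against 5.51 cpm), Ifi44 (26.7 against 0.918 cpm), Iigp1 (556 against 38.0 cpm) and Isg15 (632 against 53.8 cpm) had the largest ratios. Ifi204, Zbp1 and Ifi27l2a were the 3 genes higher in FAPs. At day 2 the type I core stood at 219 cpm in the 58 endothelial cells and at 155 cpm in FAPs. No ratio was taken at that day, so the narrowing cannot be read as a steady course. At day 5 the type I core was 1.87-fold higher in endothelial cells (log2 ratio 0.90, 0.70 to 1.10), with 18 genes higher and 4 lower against 19.0% and 15.0%. At day 7 it was 1.42-fold higher (0.51, 0.46 to 0.55), with 12 genes higher and 3 lower against 20.7% and 17.8%. From day 5 to day 7 the endothelial cells themselves had 10 genes at least 2-fold higher and 2, Irf1 and Stat2, lower, against 14.8% and 15.5% of all genes. The difference between the endothelial and FAP ratios was not tested, since each day is 1 library. The 3 antigen processing genes together stayed 3.55-fold higher at day 7 (1.83, 1.75 to 1.9).

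Macrophages held most of their type I genes late. In anti-inflammatory macrophages the type I core went from 596 cpm at day 5 to 1069.7 cpm at day 7 (log2 ratio 0.84, 0.74 to 0.95) and the interferon gamma core from 301 to 314 cpm (0.06, -0.09 to 0.21). At least 2-fold higher at day 7 were 8 of the 36 genes and 0 were lower, against 11.1% and 18.2% of all 10989 genes. Ifit3 (28.1 to 142 cpm), Rtp4 (53.2 to 173 cpm), Ifit2 (14.8 to 43.2 cpm) and Irf7 (139 to 395 cpm) led them. Isg15 was level, at 256 and 249 cpm. The label Macrophages/APCs occurred at days 2 and 7, where the type I core was at 162 and 799 cpm (log2 ratio 2.31, 2.18 to 2.43), and 24 genes were at least 2-fold higher and 1 lower, against 6.98% and 9.81% of all 9380 genes. All 8 type I core genes and all 3 antigen processing genes were among the 24. The 1 lower gene was Gbp7, with 8.45 and 3.24 cpm. Macrophage markers under this label summed to 11153 cpm at day 2 and 1886 cpm at day 7, and monocyte markers to 916 and 2114 cpm, so the label did not hold the same mix of cells on both days.

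Set against FAPs of the same day, anti-inflammatory macrophages were lower in the interferon gamma core at both days, with log2 ratios of -1.29 (-1.45 to -1.14) at day 5 and -1.14 (-1.19 to -1.09) at day 7. The type I core differed little, at -0.29 (-0.41 to -0.17) and -0.10 (-0.13 to -0.07). Of the 36 genes, 5 were at least 2-fold higher and 5 lower at day 5, against 14.0% and 29.3% of all genes, and 5 higher and 4 lower at day 7, against 14.5% and 32.3%. At both days the higher count lies at this background and the lower count below it. Psmb8, Psmb9, Tap1 and Irf7 were higher at both days, with Trim30a at day 5 and Ifit2 at day 7. Iigp1, Ifit1 and Gbp7 were lower at both days, and Iigp1 had the smallest ratio each time (-3.74 and -3.93).

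The label FAPs (activated) of day 7 did not carry a higher type I core than the other FAPs. It held 912 against 1189 cpm (log2 ratio -0.38, -0.45 to -0.31), and 745 against 681 cpm of the interferon gamma core (0.13, 0.05 to 0.21). Between these labels Zbp1 (47.7 to 180.3 cpm), Ifi27l2a (929 to 2269 cpm) and Trim30a (31.5 to 65.8 cpm) were at least 2-fold higher and Ifit3 (190 to 63.4 cpm) was lower, against 5.57% and 13.6% of all 11924 genes. The count of higher genes is near this background and that of lower genes below it. Monocyte markers summed to 2059 cpm in FAPs (activated) and 354 cpm in the other FAPs, and macrophage markers to 1268 and 1150 cpm. Their part in the Zbp1, Ifi27l2a and Trim30a values was not tested.

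Muscle stem cells at day 2 and tendon cells at day 0 held little of the type I core. The tendon cells of day 0 did hold 305 cpm of the interferon gamma core. The type I core stood at 13.2 cpm in MuSCs and progenitors (muscle stem cells and their progeny) at day 2 and at 398 cpm at day 7, and the interferon gamma core at 18.4 and 422 cpm. Macrophage markers stood at 1559 and 5597 cpm in them. No ratio between these days was taken, since the 58 cells of day 2 are fewer than the 100 set for a comparison between injured days. Tenocytes, the cells of tendon, held 39.1 cpm of the type I core at day 0, from 16 UMIs in 70 cells, and 582 cpm (529 to 640) at day 7, where Ifit1 was at 208 cpm. Mature skeletal muscle held 138 and 87.3 cpm at days 5 and 7, and NK cells 173 cpm at day 5. The 29 B cells and 40 MuSCs and progenitors of day 5 were left out of these values.

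To ask whether all or few cells of a label carried the genes, every cell was thinned at random to 1000 UMIs, since deeper cells show more genes. At days 0, 2, 5 and 7, UMIs of at least 2 type I core genes were found in 1.85% (1.43 to 2.35), 1.95% (1.04 to 3.31), 7.85% (6.11 to 9.90) and 21.9% (20.1 to 23.9) of FAPs. Without thinning the shares were 10.6%, 21.4%, 26.1% and 69.9%, with median depths of 4452, 12321, 2785 and 7007 UMIs, so the thinned intervals of days 0 and 2 overlap while the unthinned share of day 2 was higher. The share with at least 1 type I core gene was 11.6%, 9.30%, 29.7% and 50.4%. Free RNA was not measured directly. For comparison, in the labels with the lowest type I levels of each day at least 1 type I core gene was found in 2.86% of tenocytes at day 0, in 0 of 58 MuSCs and progenitors at day 2, which allows a share of up to 5.17% (3 cells of 58) or 6.16% by the exact interval, and in 3.23% and 7.14% of mature skeletal muscle at days 5 and 7, whose median depths were 5320.5, 34387, 1608 and 5728 UMIs.

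Of the endothelial cells, 20.7% (18.3 to 23.2), 3.45% (0.42 to 11.9), 25.0% (16.9 to 34.7) and 30.2% (26.3 to 34.3) had at least 2 type I core genes at these days. Anti-inflammatory macrophages had 9.98% (7.31 to 13.2) at day 5, with 1 shallower cell left out, and 19.2% (17.5 to 21.0) at day 7. For the interferon gamma core the shares were 4.84%, 1.5%, 13.4% and 13.6% in FAPs, 33.5%, 5.17%, 30.0% and 27.7% in endothelial cells and 3.71% and 5.00% in anti-inflammatory macrophages.

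**Figure D5:**
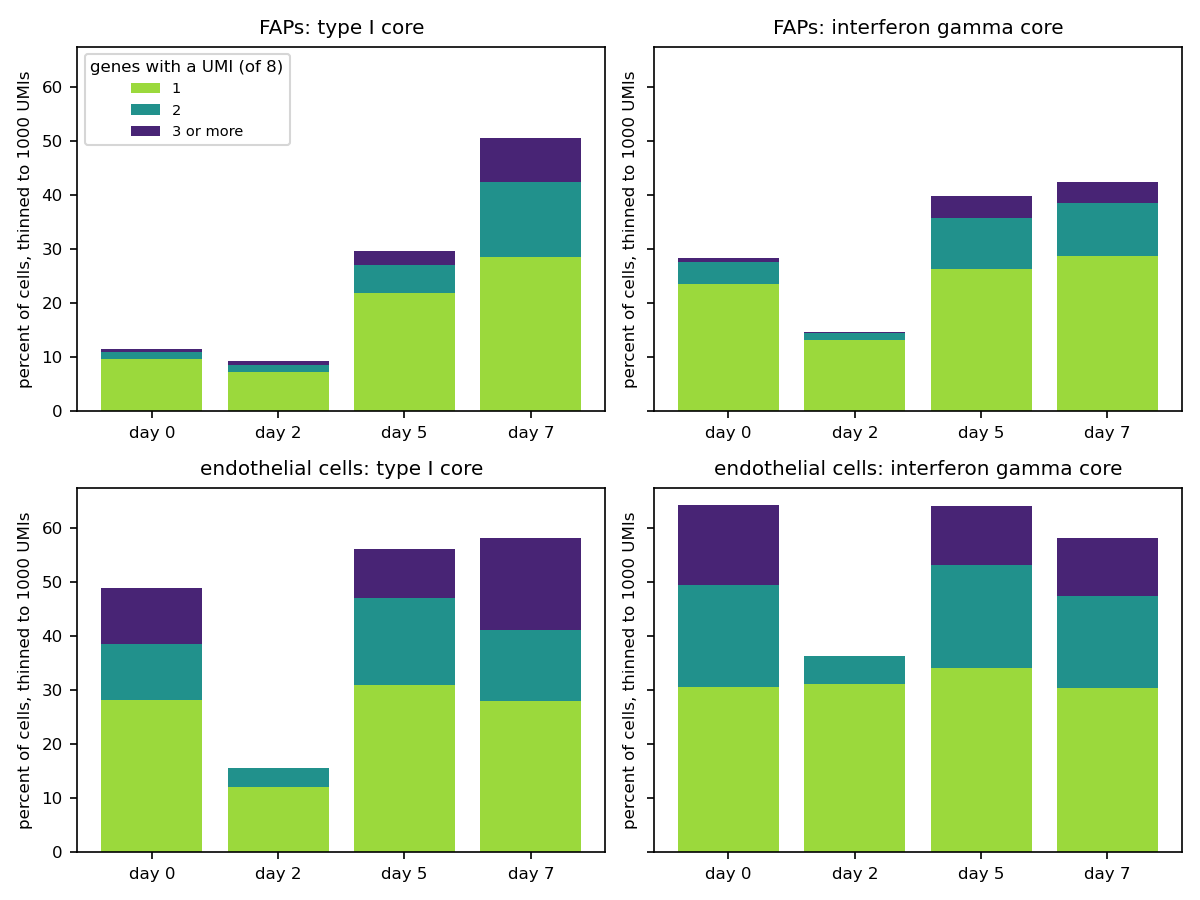
Percent of FAPs (top) and endothelial cells (bottom) with a UMI of 1, 2, or 3 or more of the 8 type I core genes (left) or 8 interferon gamma core genes (right) at each day, after thinning each cell to 1000 UMIs. The type I bars of FAPs go from 11.6% of cells at day 0 to 50.4% at day 7, and the interferon gamma bars of endothelial cells reach 64.1% and 64.0% at days 0 and 5.

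The type I transcripts were unevenly spread over cells. The Fano factor (variance over mean of the UMIs per thinned cell, 1 where all cells are alike and only counting varies) was 3.67 and 3.39 in FAPs and 5.24 and 4.14 in endothelial cells at days 0 and 7 for the type I core, against 1.59 and 1.81 and 2.69 and 1.97 for the interferon gamma core. Type I counts were thus more uneven than gamma counts in both cell types at both days. Single cells reached up to 7 of the 8 type I core genes in FAPs and all 8 in endothelial cells even at 1000 UMIs.

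Cells with type I core genes held interferon gamma core genes more often than cells without them. Among endothelial cells of day 0 with no type I core gene, 53.7% (49.4 to 57.9) had an interferon gamma core gene, against 79.6% (73.7 to 84.6) of the 225 cells with at least 2 type I core genes. In FAPs the pair was 26.7% (25.1 to 28.3) and 56.9% (44.0 to 69.2) at day 0 and 34.2% (31.1 to 37.3) and 61.4% (56.5 to 66.1) at day 7. In anti-inflammatory macrophages of day 7 it was 18.7% (16.4 to 21.2) and 40.4% (35.4 to 45.6). These intervals do not overlap, but they cover counting of cells within 1 library, and a doublet with another cell type would also hold both; no doublet caller was run.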

How the data were processed

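Single cells of the tibialis anterior were captured with a droplet kit that counts 3′ ends, after digestion with Collagenase D and Dispase II and a sort for live cells, per the labels' protocols. The deposited matrices hold raw UMI counts per gene and barcode, with the mm10 genome and the tools Cell Ranger 2, Seurat 2.3.4 and R 3.6.2 named in the submitters' processing notes, which give them no role or order. The tables the authors deposited beside them hold the natural log of 1 plus 10000 times a gene's share of the cell's UMIs, and recomputing these from the counts gave the same values within 6.22e-15. The cell labels, the UMI count per cell and the fraction of mitochondrial UMIs are the authors', as deposited; the highest mitochondrial percent lay between 19.0 and 20.0 over the days. The 2 day 0 runs share 1 table and could not be separated. Another 8 per-cell columns were not used, and neither were 9 to 21 barcodes per day without a label, outside the closing section.

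Counts were summed per label and day with Python 3.11.15, numpy 2.4.6, scipy 1.17.1 and pandas 2.3.3. Labels needed 50 cells. A gene was tested with at least 20 UMIs over both groups, and called at 2-fold; 3 counts stand for 0 in a ratio. No count model was fitted, since each day is 1 matrix. The class FAPs joins both FAP labels of day 7. The summing of ratios was tested on simulated data. Doublets were not called.

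The 36 genes, the lists and the labels compared were chosen with earlier results of these data known. All 36 could be named: in each comparison the 4 largest and 3 smallest ratios and up to 8 more by role, and of the other pathway genes, of which Mx2, Ifi209, Ifi213 and Gbp6 were not found in the tables, the 3 largest and the smallest. The within-day comparisons, the immediate-early genes, the Igtp promoter and 2 of the alternatives (the lower 50% of cells by UMIs of C1qa, C1qb, C1qc and Lyz2, and day 7 FAPs without the activated label) were chosen after seeing the data. The other alternatives changed the thinning, the UMI minimum, the fold, the scaling, the cells kept, or left out Isg15 or Irf1. Promoters came from RefSeq (GRCm38.p6).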

Additional observations from a re-analysis of the deposited data

Results flagged for a closer look

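For 12 pairs of gene and day, the ratio to day 0 was above 0 in FAPs and below 0 in endothelial cells with both counting intervals clear of 0. Each day is 1 library, and these differences were not tested. The pairs were picked by the ratios themselves, and no share of all genes that meet the same rule stands beside them. Their number therefore does not set these genes apart from other genes. At day 5 the FAP log2 ratio exceeded the endothelial one by 3.06 for Ifit3 (1.47 against -1.60), by 2.64 for Ifi47 (1.15 against -1.50), by 2.38 for Gbp2 (0.94 against -1.44) and by 1.66 for Xaf1 (0.54 against -1.12). These endothelial values rest on 6 to 13 UMIs.

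At day 7 the difference was 3.26 for Iigp1 (2.59 against -0.67), 1.87 for Ifi47, 1.86 for Gbp7 and 1.03 for Irgm1, all 4 of the interferon gamma core. It was 1.17 for Irf9 and 0.96 for Stat2, signal carriers of the type I response, 1.34 for Parp14, an ADP-ribosyltransferase, and 0.39 for Ifi35. None of the type I core genes was among the genes of day 7.

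Barcodes without a label at day 5 held the type I core at 515 cpm, from 70 UMIs, against 97.8 cpm from 6 UMIs in those of day 0, 18.0 cpm at day 2 and 291 cpm at day 7. Only 9 to 21 barcodes per day were without a label.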

How the results depend on the processing

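Of 110 alternative values for 19 results, 51 were counted as the same as the reported value, 55 as moved and 4 as changed in sign. For ratios and percents, the same means inside the counting interval. The counts of genes have no such interval, and their calls do not follow closeness. For them, 13 in place of 19 was counted as the same and 2 in place of 1 as moved. In the authors' log-normalized values, which are differences of natural logs averaged over cells and so on another scale, the type I core of FAPs differed from day 0 by 0.00298, 0.13 and 0.39 at days 2, 5 and 7, the first with the sign reversed, and the interferon gamma core by -0.056, 0.088 and 0.18. In endothelial cells the type I difference there was -0.029 (reversed) at day 5 and 0.21 at day 7, and the interferon gamma difference -0.0075 at day 7. Without Isg15 the type I log2 ratios were -0.49, 1.68 and 2.51 in FAPs at days 2, 5 and 7, and -0.11 (reversed) and 0.53 in endothelial cells at days 5 and 7. Without Irf1 the interferon gamma ratios were -0.57, 1.53 and 1.49 in FAPs and -0.42 in endothelial cells at day 7. With cells thinned to 1000 UMIs the type I ratios were -0.43, 1.56 and 2.74 in FAPs and -0.038 (reversed) in endothelial cells at day 5, and the interferon gamma ratios 0.77 and 0.86 in FAPs at days 5 and 7 and -0.44 in endothelial cells at day 7. In cells without a UMI of the macrophage genes C1qa, C1qb, C1qc and Lyz2 they were 1.73 and 2.78 (type I) and 0.75 and 1.02 (interferon gamma) in FAPs at days 5 and 7, and 0.45 and -0.30 in endothelial cells at day 7. At day 2 this could not be run, since 0 FAPs had no such UMI; in the lower 50% of cells by these genes' UMIs, an alternative added after seeing the data, the ratios of day 2 were -0.37 and -1.09. Without the top 5% of cells by UMIs the type I ratios were -0.48 and 1.74 in FAPs at days 2 and 5 and 0.20 in endothelial cells at day 7. With the median of all genes subtracted they were -0.092 and 2.71 in FAPs at days 2 and 7 and 0.39 in endothelial cells at day 7, and the interferon gamma ratios -1.01, 0.84 and -0.44. The cause of these shifts was not tested. Leaving out FAPs (activated), also added later, gave 2.68 and 0.74 at day 7.

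The count of genes at least 2-fold higher was 2 (FAPs, day 2) with thinned cells and 1 (endothelial cells, day 5) with at least 50 UMIs. In FAPs at day 5 the reported count of 19 of 36 was 13 of 35, with 1 lower, in cells without macrophage UMIs. With thinned cells it was 15 of 35, with 1 lower, and without the top 5% of cells 16 of 36. These day 5 values are among the 51 counted as the same. At 1.5-fold it was 4 in FAPs at day 2, and 4 and 11 in endothelial cells at days 5 and 7, where 18.1%, 22.4% and 14.2% of all genes passed that fold. Thinned to 500 UMIs, to 2000 UMIs or not at all, the percent of FAPs with at least 2 type I core genes was 0.939, 4.07 and 10.6 at day 0, 0.750, 3.6 and 21.4 at day 2, 4.23, 22.4 and 26.1 at day 5, and 10.2, 36.6 and 69.9 at day 7. Deeper cells show more genes by construction. Thinning to 2000 UMIs left out 318 FAPs at day 0 and 261 at day 5, against 0 at days 2 and 7. The 22.4% of day 5 thus covers only the 567 deeper cells.

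No paired analysis was possible because each day is 1 matrix and no day comparison has replicates. Few cells limit the endothelial values of days 2 and 5, with 58 and 100 cells, and labels of similar size. Day and library cannot be told apart, nor age at day 2 or sex at day 7.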
